A study of Homo sapiens with 8 samples.

Results

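The smallest-count peaks of an NKRF chromatin immunoprecipitation (ChIP-seq) experiment are the peaks that the authors' peak caller kept with a tag count of 6, the lowest count in each list that gives one. A tag is 1 aligned sequencing read. Chromosomes 1 to 22 held 8847 of them, of 20386 peaks deposited in 4 lists: 2363 in si-Uc003xsl.1 replicate 1, 1456 in si-Uc003xsl.1 replicate 2 and 5028 in control replicate 1. They were chosen by tag count alone, with no use of position, and were counted per chromosome and per 5-Mb bin as a possible map of background or copy number. The cells were MDA-MB-231-P3, a highly metastatic subline of triple-negative breast cancer, transfected either with siRNA against the transcript Uc003xsl.1 or with control siRNA. DNA bound to NKRF was recovered with 1 antibody from both groups and sequenced beside input DNA, which is sheared chromatin without immunoprecipitation. Both groups share the cell line, the fixation and the antibody, and the level of Uc003xsl.1 was not analysed here. Control replicate 2, the fourth NKRF library, came from another version of the caller and gives no tag count per peak. It has no members, and its 896 autosomal peaks serve below as a separate profile. Its tags were 105 bp long, against 50 bp in the other lists, and numbered 8250475 for NKRF and 11886717 for input. The caller's fragment length was 150 bp there. It was 60 bp in si-Uc003xsl.1 replicate 1, 67 bp in si-Uc003xsl.1 replicate 2 and 49 bp in control replicate 1, where it was shorter than a tag. The labels do not state whether the replicates were separate cultures, so the spread between them may be technical.

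NKRF is the NF-kappa-B-repressing factor, a nuclear protein known for silencing genes such as the interferon beta and interleukin 8 genes and for roles in the nucleolus. A caller of this kind slides along the genome and keeps places where the immunoprecipitated tags pile up above a local background. Chromatin that is fragmented and sequenced without enrichment also gives small pile-ups by counting error, and more of them where a genome carries more copies of a region. MDA-MB-231 is known as an aneuploid line with lost and gained chromosome arms, among them a deletion at 9p21 that removes the cell cycle inhibitor CDKN2A.

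Promoters were overlapped by a smaller share of members than of peaks with 7 tags or more in each list. The share of the autosomes that these windows cover was not computed. The 300-base windows that RefSeq (build GRCh38.p14) gives for 33558 gene starts, 250 bases before and 50 after each, were overlapped by 17 members of si-Uc003xsl.1 replicate 1 (0.719%), by 14 of si-Uc003xsl.1 replicate 2 (0.962%) and by 14 of control replicate 1 (0.278%). Peaks with 7 tags or more overlapped such a window in 14.9%, 19.8% and 0.510% of cases in the same order of lists. The promoters touched by members had a median GC content of 53% in si-Uc003xsl.1 replicate 1, 55.8% in si-Uc003xsl.1 replicate 2 and 42% in control replicate 1, against 58.7% over all windows. Those touched by larger peaks had medians of 72% in si-Uc003xsl.1 replicate 1, 72.7% in si-Uc003xsl.1 replicate 2 and 56.7% in control replicate 1. From each list 1 such promoter is shown, to let a reader see what DNA a 6-tag peak covers. Letters run 5′ to 3′ along the gene's strand, and capitals mark the bases under the peak.
CCDC192: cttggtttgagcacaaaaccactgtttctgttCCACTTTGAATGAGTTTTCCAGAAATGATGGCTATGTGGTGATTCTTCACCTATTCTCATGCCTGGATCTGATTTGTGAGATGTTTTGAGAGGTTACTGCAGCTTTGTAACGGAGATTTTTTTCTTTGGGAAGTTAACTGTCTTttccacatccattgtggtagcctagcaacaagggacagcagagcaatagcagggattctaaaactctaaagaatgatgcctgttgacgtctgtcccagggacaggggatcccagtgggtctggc
TUBA3C: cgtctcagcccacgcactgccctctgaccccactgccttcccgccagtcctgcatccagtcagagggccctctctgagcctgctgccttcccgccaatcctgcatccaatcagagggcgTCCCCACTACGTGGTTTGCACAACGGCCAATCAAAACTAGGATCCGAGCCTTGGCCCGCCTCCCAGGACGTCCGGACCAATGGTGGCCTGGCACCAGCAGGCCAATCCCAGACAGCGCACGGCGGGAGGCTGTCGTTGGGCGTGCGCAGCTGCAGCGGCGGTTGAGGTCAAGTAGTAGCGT
TBC1D1: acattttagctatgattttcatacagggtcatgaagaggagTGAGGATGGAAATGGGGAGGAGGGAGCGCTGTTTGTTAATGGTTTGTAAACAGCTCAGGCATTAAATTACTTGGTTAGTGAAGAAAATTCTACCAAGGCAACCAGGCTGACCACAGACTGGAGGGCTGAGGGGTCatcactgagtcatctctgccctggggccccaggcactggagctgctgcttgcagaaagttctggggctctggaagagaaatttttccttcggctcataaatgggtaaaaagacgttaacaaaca
The CCDC192 window (chr5:127703141-127703440, plus strand) held a member of si-Uc003xsl.1 replicate 1 at chr5:127703173-127703316, and 38.9% of the covered bases were G or C. The TUBA3C window (chr13:19181775-19182074, minus strand) held a member of si-Uc003xsl.1 replicate 2 at chr13:19181766-19181955, with 64.1% G or C under the peak. TUBA3C encodes an alpha tubulin with close paralogs, so tags there could belong to a copy. The TBC1D1 window (chr4:38119704-38120003, plus strand) held a member of control replicate 1 at chr4:38119745-38119879, with 48.1% G or C. TBC1D1 is a Rab GTPase-activating protein of glucose transport.

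The rule fixed the members' tag count and nothing else, and their other values are given as a description. Peaks with 6 tags, on any chromosome, made up 31.9% of the list in si-Uc003xsl.1 replicate 1, 33.1% in si-Uc003xsl.1 replicate 2 and 68.1% in control replicate 1. Their median width was 146 bp, 175 bp and 130 bp in si-Uc003xsl.1 replicate 1, si-Uc003xsl.1 replicate 2 and control replicate 1. Just above the threshold, the 1409, 658 and 1574 autosomal peaks with 7 tags had medians of 169, 192 and 141 bp, in the same order. The authors' fold enrichment over input had a median of 11.3 for members and 11.3 for 7-tag peaks in si-Uc003xsl.1 replicate 1. In si-Uc003xsl.1 replicate 2 the medians were 13.3 and 12.1, and in control replicate 1 they were 11.9 and 12.8. Over all peaks with 7 tags or more the median fold was 9.08 in si-Uc003xsl.1 replicate 1, 8.55 in si-Uc003xsl.1 replicate 2 and 12.5 in control replicate 1. In the si-Uc003xsl.1 lists the median fold was thus higher for members. Their smallest fold was also higher, 6.36 against 2.83 in replicate 1 and 5.92 against 2.05 in replicate 2. Tag count and the caller's threshold together bound the fold, so it does not rank members by strength. The authors' score, which grows as the caller's p-value falls, went the other way. Its medians were 41.26 for members against 46.31 in si-Uc003xsl.1 replicate 1, and 46.78 against 47.27 in replicate 2. The authors' false discovery rate per peak, which this caller estimates by swapping the sample and the input, had a median over members of 30.7% in si-Uc003xsl.1 replicate 1 and 10.7% in si-Uc003xsl.1 replicate 2. In control replicate 1 it was 100% for every member and for every autosomal peak with 7 tags or more. Peaks with 7 tags or more had medians of 30.8% in si-Uc003xsl.1 replicate 1 and 11.2% in si-Uc003xsl.1 replicate 2. The median thus differed between lists and hardly between members and larger peaks of a list. The caller used 18890698 NKRF tags in si-Uc003xsl.1 replicate 1, 11366267 in si-Uc003xsl.1 replicate 2 and 19335431 in control replicate 1, beside 19221589, 19541097 and 19363334 input tags. The lists with like depth, si-Uc003xsl.1 replicate 1 and control replicate 1, differed in the share of 6-tag peaks and in the false discovery rate. The si-Uc003xsl.1 lists, at unlike depths, had like shares but median false discovery rates over members of 30.7% and 10.7%. What part depth had in either value was not tested.

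Almost no member recurred at the same place. No member of si-Uc003xsl.1 replicate 1 overlapped a member of si-Uc003xsl.1 replicate 2, and 3 pairs lay within 1 kb of each other. A single member of si-Uc003xsl.1 replicate 1 overlapped a member of control replicate 1, which is 0.0423% of the si-Uc003xsl.1 list and 0.0199% of the control list. It lies at chr4:166574026-166574114, 159315 bp outside SPOCK3, which encodes a secreted proteoglycan. A single member of si-Uc003xsl.1 replicate 2 overlapped a member of control replicate 1, which is 0.0687% of the si-Uc003xsl.1 list and 0.0199% of the control list. It lies at chr3:70997739-70997873, inside FOXP1, the gene of a forkhead transcription factor. Against all autosomal peaks of the other lists, whatever their tag number, no pairing gave more than 6 overlapping members. The profiles below therefore rest on different positions in each list. The overlap of larger peaks between lists was not computed, nor was the overlap that random placement would give. Whether the lack of recurrence is particular to members was thus not tested.

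The authors' score per peak grows as the caller's p-value falls. In si-Uc003xsl.1 replicate 1 the highest score of a member was 75.49, at chr13:88219240-88219318, 539662 bp from SLITRK5, a neuronal membrane protein gene. The next was 71.94 at chr16:28377233-28377313, beside EIF3CL, a near-identical copy of a translation initiation factor gene. In si-Uc003xsl.1 replicate 2 the highest score was 99.09, at chr8:102069832-102069919 inside NCALD, a neuronal calcium sensor gene. It was followed by peaks inside PHRF1, which encodes a RING finger ubiquitin ligase, and CCDC178, both at 73.78. In control replicate 1 the highest was 78.49, at chr6:160973861-160973933, 17873 bp from MAP3K4, a stress-activated kinase gene. Peaks nearest to GPAT3, an enzyme gene of triglyceride synthesis (75.76), and inside FBXO38 (73.58) followed. Scores of different lists rest on different depths and were not set against each other.

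Members were spaced widely. The median distance from a member to the nearest other member of its list was 359 kb in si-Uc003xsl.1 replicate 1, 509 kb in si-Uc003xsl.1 replicate 2 and 110 kb in control replicate 1. Within 10 kb of another member lay 2.29%, 2.40% and 8.19% of them, in the same order. Over the autosomes there were 0.822 members per Mb in si-Uc003xsl.1 replicate 1, 0.507 in si-Uc003xsl.1 replicate 2 and 1.75 in control replicate 1. Below, a relative density is the density of members in a chromosome divided by that of all autosomes in the same list, so 1 is the list's average. Its interval is an exact Poisson 95% interval, which covers counting error only.

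By whole chromosome length, chromosomes 3 and 5 were dense and chromosomes 9 and 19 sparse in all 3 lists. Chromosome 5 had a relative density of 1.22 (interval 1.05 to 1.41, 182 members) in si-Uc003xsl.1 replicate 1, 1.51 (1.27 to 1.79, 139 members) in si-Uc003xsl.1 replicate 2 and 1.63 (1.49 to 1.77, 516 members) in control replicate 1. Chromosome 3 had 1.24 with 202 members, 1.23 with 124 members and 1.45 with 502 members, in the same order. Chromosome 9 had 0.791, 0.742 and 0.822 from 90, 52 and 199 members. Chromosome 19, which is the most gene-dense autosome, had 0.706, 0.606 and 0.332 from 34, 18 and 34 members. For these 4 chromosomes the interval lay on the same side of 1 in each list, with whole chromosome length as the divisor. No autosome lay above 1 in 1 list and below 1 in another by its intervals. When only 1-Mb windows with a peak or gene counted as length, chromosome 9 stood at 0.848 in si-Uc003xsl.1 replicate 1 and 0.795 in si-Uc003xsl.1 replicate 2. A Poisson interval scales by the same factor as its relative density. Scaled so, the upper limits of chromosome 9, which are 0.973, 0.973 and 0.945 by whole length, pass 1 in all 3 lists. Chromosome 3 in si-Uc003xsl.1 replicate 2 moved from 1.23 to 1.19 by that length, and its lower limit of 1.03 falls below 1. Of these 4 chromosomes, 5 and 19 keep their side of 1 in all 3 lists.

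The range over the autosomes was narrow in si-Uc003xsl.1 replicate 1 and wide in control replicate 1. In si-Uc003xsl.1 replicate 1 relative density ran between 0.626 on chromosome 14 and 1.24 on chromosome 3, a ratio of 1.98, and 15 of 22 intervals held 1. In si-Uc003xsl.1 replicate 2 it ran between 0.445 on chromosome 15 and 1.51 on chromosome 5, a ratio of 3.40, and 14 intervals held 1. In control replicate 1 it ran between 0.158 on chromosome 22 and 1.63 on chromosome 5, a ratio of 10.3, and 4 intervals held 1. Chromosome 15 had 0.811 (68 members) in si-Uc003xsl.1 replicate 1, 0.445 (23 members) in si-Uc003xsl.1 replicate 2 and 0.230 (41 members) in control replicate 1. Chromosome 16 had 0.930, 0.547 and 0.361, and chromosome 7 had 0.840, 0.595 and 0.520, in the same order. Chromosome 11 ran the other way, with 1.04, 1.23 and 1.49. In these 4 cases si-Uc003xsl.1 replicate 2 lay between the other two lists, as it did on 11 of the 22 autosomes. On the other 11 it lay outside them, as on chromosome 14 with 0.626, 1.05 and 0.722 and on chromosome 17 with 0.862, 1.19 and 0.529. The intervals are wider in the si-Uc003xsl.1 lists because these lists hold fewer members.

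**Figure D1:**
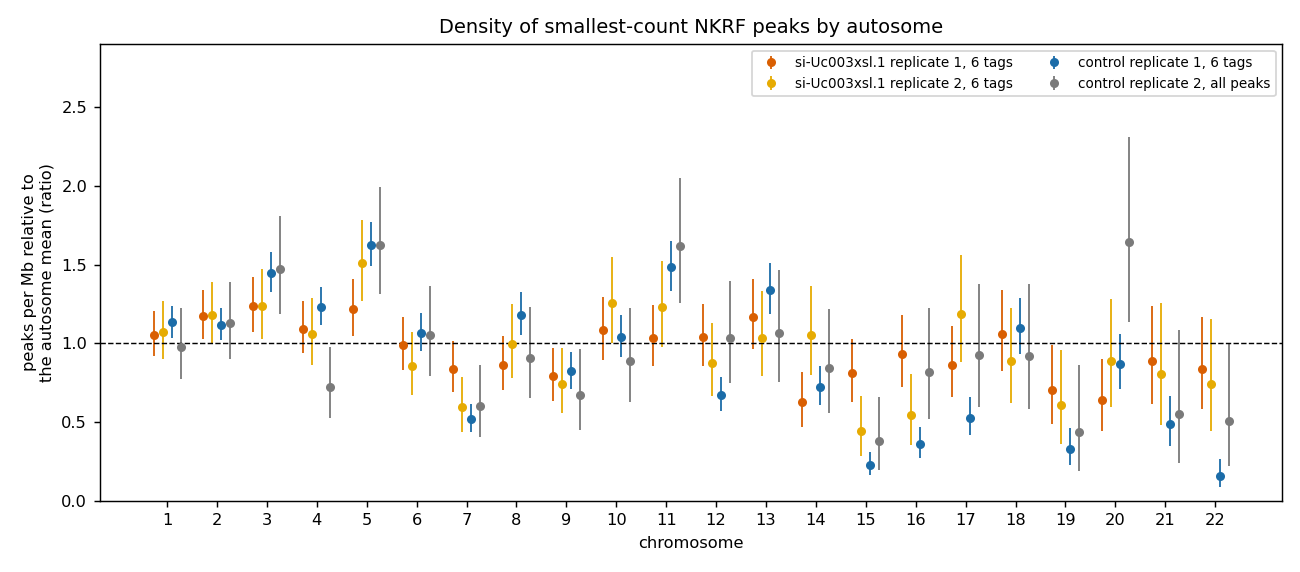
Peaks per Mb on each autosome divided by the autosome mean of the list, with exact Poisson 95% intervals; members are drawn for si-Uc003xsl.1 replicates 1 and 2 and control replicate 1, and all peaks for control replicate 2. By whole chromosome length, chromosomes 3 and 5 stand above 1 and chromosomes 9 and 19 below 1 in the 3 lists of members. Control replicate 1 reaches lowest, 0.158 on chromosome 22.

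The shares of members on each autosome were compared between the 2 si-Uc003xsl.1 lists and the 1 control list with edgeR's quasi-likelihood test, with Benjamini-Hochberg adjustment over the 22 autosomes. Chromosome 22 was called higher in si-Uc003xsl.1, which is 4.55% of the autosomes tested, and 0.0% were called lower. It held 35 members (1.48% of the list) in si-Uc003xsl.1 replicate 1 and 19 (1.30%) in si-Uc003xsl.1 replicate 2, against 14 (0.278%) in control replicate 1. Both si-Uc003xsl.1 lists lay above the control list. Control replicate 2, outside the test, had 8 of its peaks there (0.893%), a relative density of 0.505 (0.218 to 0.995), between the si-Uc003xsl.1 values of 0.838 and 0.738 and the control replicate 1 value of 0.158. The log2 fold change was 2.32 (SE 0.30, edgeR adjusted p = 1.82e-06). DESeq2 gave the same log2 fold change with an adjusted p of 0.447, and called no autosome. The test takes the spread of the single control library to be that of the si-Uc003xsl.1 pair. The next autosomes by p were chromosome 5 with a log2 fold change of -0.28 (edgeR adjusted p = 0.0515), chromosome 19 with 0.99 and chromosome 11 with -0.41 (both 0.0673), and chromosome 15 with 1.49 and chromosome 3 with -0.23 (both 0.109). With TMM scaling edgeR called 6 autosomes: chromosomes 15, 19 and 22 higher and chromosomes 3, 5 and 11 lower in si-Uc003xsl.1. The authors' caller estimated a false discovery rate of 100% for all control members and lower rates for the si-Uc003xsl.1 members, and how far this separates the groups was not tested.

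Along the chromosomes the same difference in contrast was seen. Each autosome was divided into 5-Mb bins, of which 528 of 587 lay wholly between the first and last peak of their chromosome and are called full. A full bin held a mean of 4.27 members and at most 13 in si-Uc003xsl.1 replicate 1. The mean was 2.6 and the maximum 10 in si-Uc003xsl.1 replicate 2, and the mean was 9.27 and the maximum 45 in control replicate 1. The variance over bins divided by the mean, which is 1 where members fall independently at an equal rate, was 1.5, 1.64 and 6.66, in the same order. A list with more members per bin shows unequal rates more strongly in this ratio. Empty bins numbered 20, 83 and 36. Adjoining bins had like counts in control replicate 1, with a Pearson correlation of 0.66 over 506 pairs of neighbours, against 0.17 in si-Uc003xsl.1 replicate 1 and 0.37 in si-Uc003xsl.1 replicate 2.

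**Figure D2:**
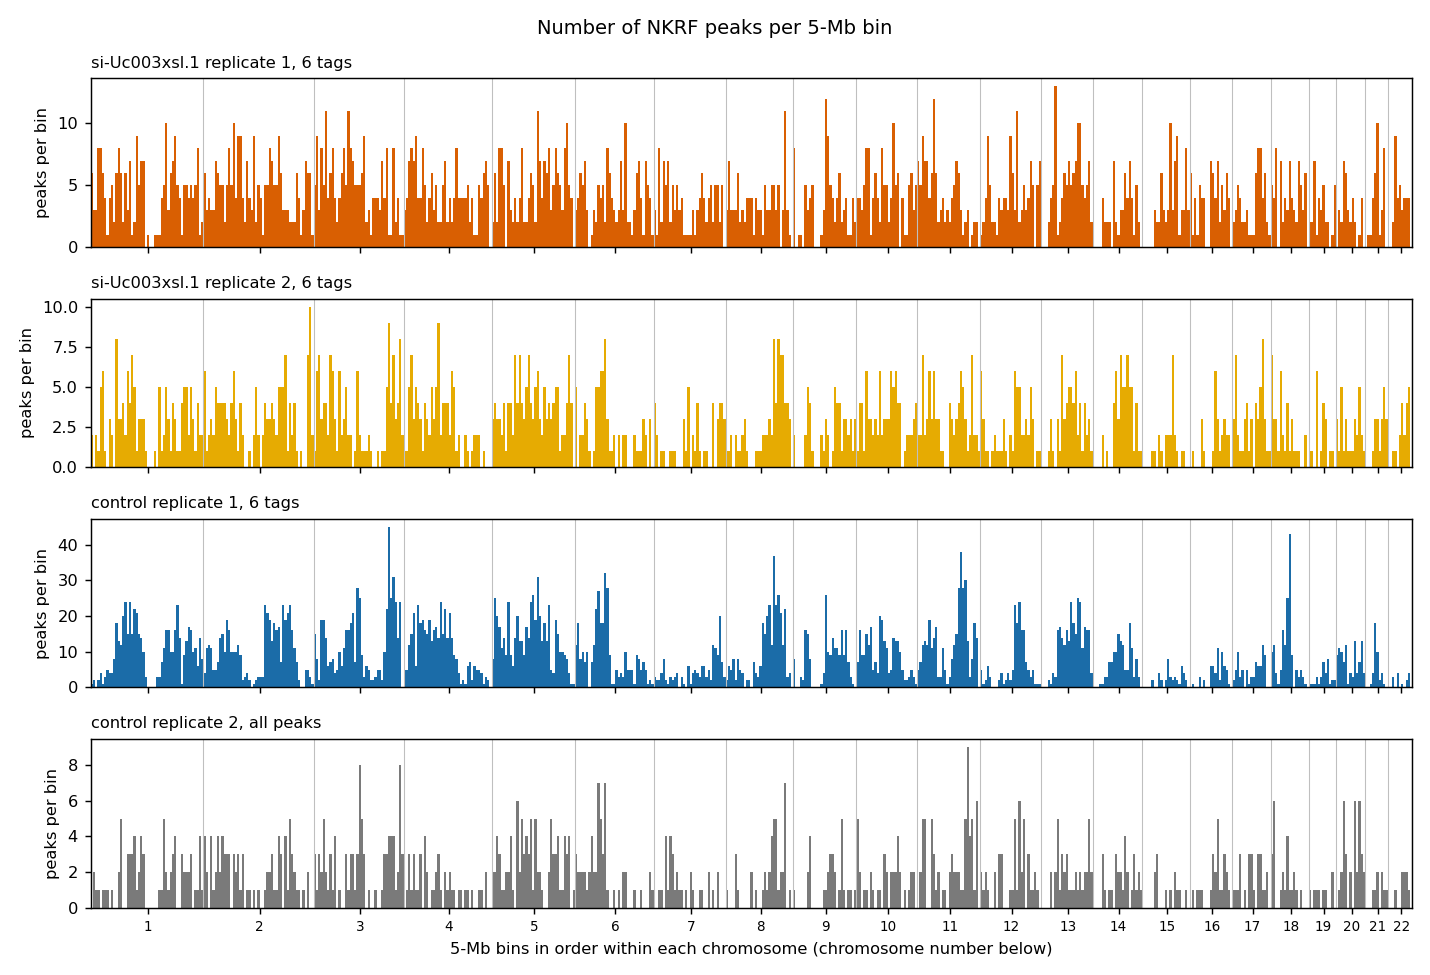
Number of peaks in each 5-Mb bin along chromosomes 1 to 22, with the number per bin on a scale of its own in each panel; the upper 3 panels show members and the lowest shows all peaks of control replicate 2. Control replicate 1 rises to 45 members in 1 bin of chromosome 3 and stays low over long runs of bins, while si-Uc003xsl.1 replicate 1 reaches at most 13.

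The densest bins by the mean of the 3 relative densities lay on chromosomes 3, 5, 8 and 11. The bin at 165 to 170 Mb of chromosome 3 held 1 member in si-Uc003xsl.1 replicate 1, 9 in si-Uc003xsl.1 replicate 2 and 45 in control replicate 1. It was the highest bin of the control list and nearly empty in si-Uc003xsl.1 replicate 1. The bin at 175 to 180 Mb of the same chromosome, which holds PIK3CA, the gene of a phosphoinositide 3-kinase subunit, had 8, 7 and 31. The bin at 105 to 110 Mb of chromosome 8 had 5, 8 and 37, and that at 95 to 100 Mb of chromosome 11 had 3, 6 and 38. The bin at 100 to 105 Mb of chromosome 5 had 11, 6 and 31, and was high in all 3 lists.

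At the other end, 8 full bins held no member and no other peak in any of the 4 lists. Of these, 7 hold no protein-coding gene of the RefSeq table and adjoin the centromeres of chromosomes 1, 9 and 16. The eighth is the bin at 5 to 10 Mb of chromosome 9, with 20 protein-coding genes. The lowest bins with any member were 120 to 125 Mb of chromosome 12, 20 to 25 Mb and 10 to 15 Mb of chromosome 9, 125 to 130 Mb of chromosome 1 and 15 to 20 Mb of chromosome 16. The chromosome 12 bin held 0 members in si-Uc003xsl.1 replicate 1, 0 in si-Uc003xsl.1 replicate 2 and 1 in control replicate 1. It has 84 protein-coding genes, and it held 23, 13 and 1 peaks with 7 tags or more in the same order, so it was not empty of larger peaks.

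Chromosome 9 was nearly empty between 5 and 25 Mb. These 4 adjoining bins hold 70 protein-coding genes. They held 2 members in si-Uc003xsl.1 replicate 1, 0 in si-Uc003xsl.1 replicate 2 and 5 in control replicate 1, which are relative densities of 0.117, 0 and 0.135. Peaks with 7 tags or more numbered 1, 1 and 2 there, and control replicate 2 had 0 peaks. All 4 lists were low. The bin at 20 to 25 Mb contains CDKN2A and CDKN2B, which encode inhibitors of cyclin-dependent kinases, MTAP, an enzyme gene of methionine salvage, and DMRTA1. It held 0, 0 and 2 members, and none lay inside any of these 4 genes. The bin at 5 to 10 Mb holds PTPRD, a receptor tyrosine phosphatase gene, and had no peak in any list. The longest stretch of chromosome 9 outside the centromere without a member of control replicate 1 ran over 15.0 Mb and 41 protein-coding genes. In si-Uc003xsl.1 replicate 1 an interval of 11.2 Mb at chr9:3492593-14703045, with 32 protein-coding genes, held no member of any list and 3 other peaks. A lower copy number, unmappable sequence and fewer tags cannot be told apart in peak lists, and the input reads were not analysed here.

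The si-Uc003xsl.1 and control shares of each bin were also tested with edgeR, over the 369 bins with at least 10 members in the 3 lists. No bin was called, 0.0% higher and 0.0% lower in si-Uc003xsl.1, and the smallest adjusted p was 0.211. At an unadjusted p under 0.05 edgeR had 36 bins, 16 of them higher in si-Uc003xsl.1, and DESeq2 had 4 and none after adjustment. The leading bin, 235 to 240 Mb of chromosome 2, had a log2 fold change of 2.76 (SE 0.79). The bins held a mean of 2.6 members in si-Uc003xsl.1 replicate 2 and the control arm was 1 library. Simulated data held only 1 size of difference, with less spread than edgeR fitted here. Which other sizes of difference this design can detect was not tested.

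The bin profiles resembled each other across the groups more than within the si-Uc003xsl.1 pair. Over the 528 full bins, which share gene content, gaps and mappability, the Pearson correlation of members was 0.49 between si-Uc003xsl.1 replicate 2 and control replicate 1. It was 0.24 between si-Uc003xsl.1 replicate 1 and control replicate 1, and 0.18 between the 2 si-Uc003xsl.1 replicates. Spearman coefficients were 0.53, 0.29 and 0.20. Low counts per bin can lower such coefficients, and what part they had here was not tested. The mean per full bin was 4.27 in si-Uc003xsl.1 replicate 1, 2.6 in si-Uc003xsl.1 replicate 2 and 9.27 in control replicate 1. The coefficients with control replicate 1 did not follow the order of these means, but 3 lists cannot show what part low counts had. The all-peak profile of control replicate 2 correlated at 0.40 with control replicate 1, at 0.34 with si-Uc003xsl.1 replicate 2 and at 0.11 with si-Uc003xsl.1 replicate 1. For peaks with 7 tags or more the order differed: the si-Uc003xsl.1 replicates correlated at 0.75 with each other, and si-Uc003xsl.1 replicate 2 correlated at 0.09 with control replicate 1. Over whole autosomes (n = 22, relative density) the members correlated at 0.80 between si-Uc003xsl.1 replicate 2 and control replicate 1, at 0.69 between si-Uc003xsl.1 replicate 1 and control replicate 1, and at 0.60 between the si-Uc003xsl.1 replicates.

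Members and larger peaks of the same library had different maps in the si-Uc003xsl.1 lists and like maps in control replicate 1. Over autosomes the correlation between the 2 classes was -0.21 in si-Uc003xsl.1 replicate 1, -0.08 in si-Uc003xsl.1 replicate 2 and 0.90 in control replicate 1. Over the full bins it was -0.02, 0.10 and 0.74. Larger peaks were densest on chromosome 19 in both si-Uc003xsl.1 lists, at relative densities of 2.11 and 2.93, where their members stood at 0.706 and 0.606.

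Long stretches made up much of the control profile. A high stretch was taken as at least 4 adjoining full bins, each with at least 1.5 times the median of 7 members in control replicate 1, and a low stretch as at least 4 with at most 0.5 times that median; this rule was set after the data were seen. There were 17 high stretches over 133 bins and 12 low stretches over 63 bins. Since control replicate 1 chose them, its pooled relative densities of 2.05 and 0.140 are a description. In the high stretches the other lists stood at 1.15 (1.06 to 1.24) in si-Uc003xsl.1 replicate 1, at 1.52 (1.39 to 1.66) in si-Uc003xsl.1 replicate 2 and at 1.53 (1.37 to 1.70) in control replicate 2. In the low stretches they stood at 0.673 (0.578 to 0.778), 0.457 (0.360 to 0.573) and 0.441 (0.321 to 0.590), in the same order. All these Poisson intervals lay on the side of 1 that control replicate 1 had. The low stretches include the full bins of chromosomes 1, 9 and 16 that held no peak in any list. Part of the agreement in the low stretches was therefore fixed in advance. With each list's own median, the same rule gave 19 high and 17 low stretches in si-Uc003xsl.1 replicate 2 (median 2 members). It gave 2 high and 7 low stretches in si-Uc003xsl.1 replicate 1 (median 4 members). Long stretches were thus not particular to control replicate 1. How far low counts per bin make such stretches was not tested.

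Stretch by stretch, 15 of 17 high stretches were above the list's mean in si-Uc003xsl.1 replicate 2, 10 of 17 in si-Uc003xsl.1 replicate 1 and 15 of 17 in control replicate 2. Of single full bins, 46.0%, 41.7% and 42.6% were above the mean in these lists, and no such share was taken over stretches of bins. The low stretches were below the mean in 11 of 12, 10 of 12 and 11 of 12 cases. The highest stretch of control replicate 1, 160 to 195 Mb of chromosome 3, held 25 members in si-Uc003xsl.1 replicate 1, 40 in si-Uc003xsl.1 replicate 2 and 185 in control replicate 1, at relative densities of 0.836, 2.19 and 2.85, and control replicate 2 stood at 2.29. There si-Uc003xsl.1 replicate 1 alone lay below its mean. The stretch at 40 to 75 Mb of chromosome 6 had 0.970, 1.87 and 2.42, and that at 80 to 135 Mb of chromosome 8 had 0.937, 1.71 and 2.25. The stretch at 10 to 45 Mb of chromosome 11 had 1.71, 1.65 and 1.51, and was high in all 3. The low stretch at 55 to 75 Mb of chromosome 7 had 0.527, 0.384 and 0.108, and that at 20 to 45 Mb of chromosome 12 had 0.656, 0.384 and 0.108. The low stretch at 25 to 45 Mb of chromosome 22, with 255 protein-coding genes, had 16, 12 and 3 members. Its relative densities of 0.937 and 1.15 in the si-Uc003xsl.1 lists were near their means, against 0.0809 in control replicate 1. Control replicate 2 stood at 0.925 there, so of the 4 lists control replicate 1 alone was low.

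**Figure D3:**
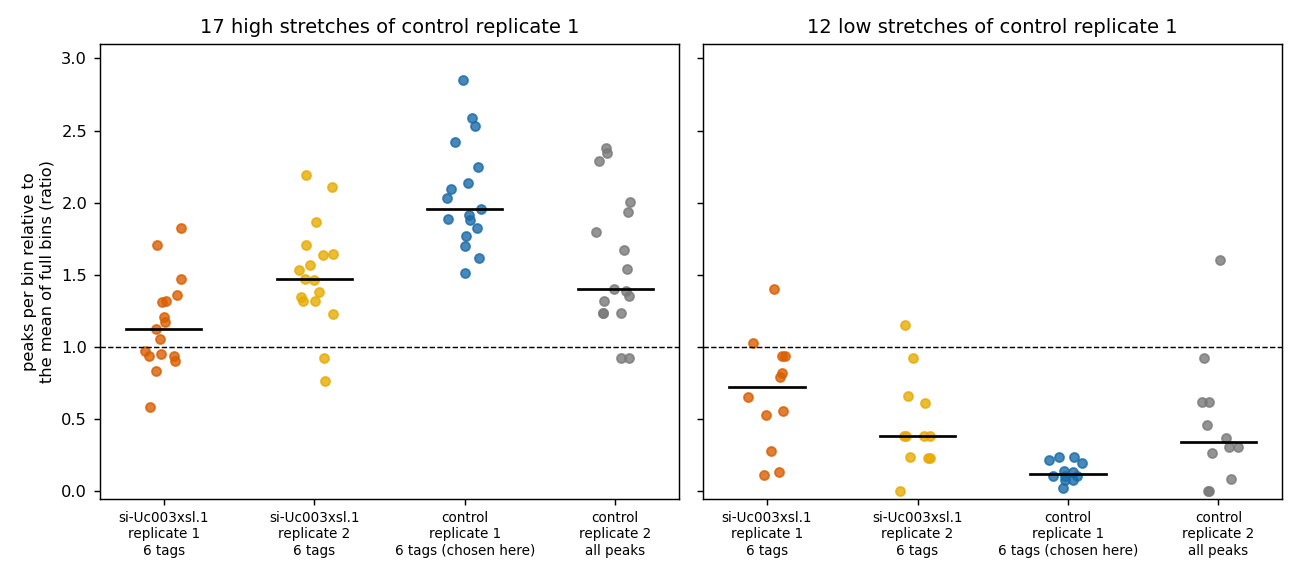
Relative density of each high stretch (left) and low stretch (right) of control replicate 1, read in si-Uc003xsl.1 replicates 1 and 2, control replicate 1 and control replicate 2; each point is 1 stretch, the bar is the median of the stretches and the dashed line is the list's mean. The control replicate 1 points are set by the choice of stretches; 15 of 17 high and 11 of 12 low stretches keep their side of the line in si-Uc003xsl.1 replicate 2 and in control replicate 2.

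Gene content separated members from larger peaks. When the full bins were ranked by number of protein-coding genes and cut into 4 classes of 132 bins, the most gene-rich class (38 to 182 genes a bin) had a relative density of members of 0.867 in si-Uc003xsl.1 replicate 1, 0.969 in si-Uc003xsl.1 replicate 2 and 0.539 in control replicate 1. Peaks with 7 tags or more stood at 1.52, 2.03 and 0.726 there. In the most gene-poor class (0 to 15 genes) members stood at 1.07, 0.940 and 1.21, and larger peaks at 0.609, 0.435 and 1.06. The Pearson correlation of members with gene number over 528 bins was -0.18, -0.04 and -0.31, and that of larger peaks was 0.50, 0.63 and -0.14. In control replicate 1 both classes were sparse in the most gene-rich class.

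**Figure D4:**
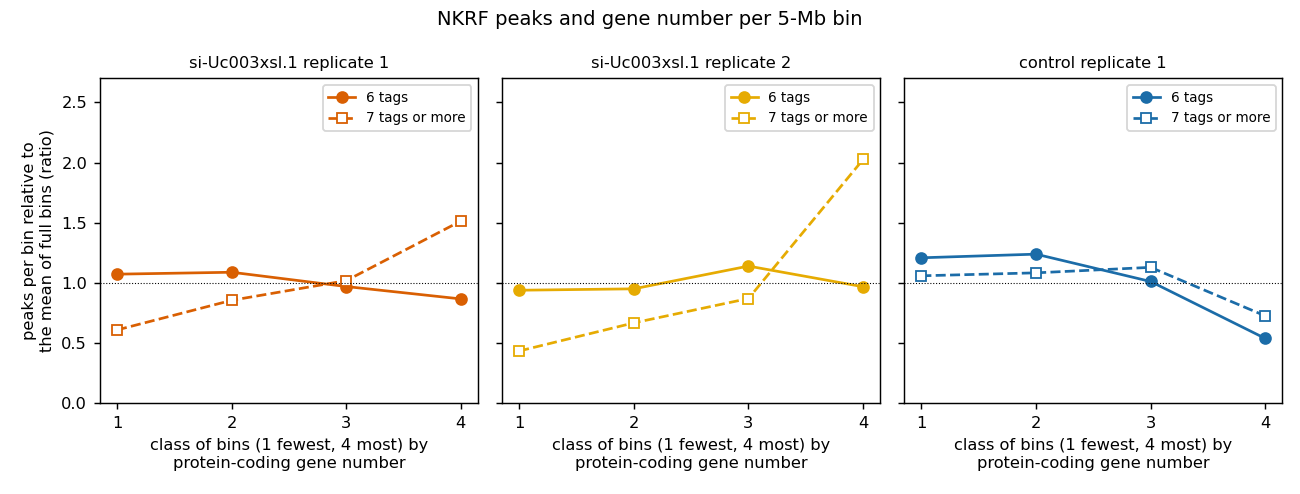
Relative density of peaks in 4 classes of 5-Mb bins, with the fewest protein-coding genes on the left and the most on the right, with members as filled circles and peaks with 7 tags or more as open squares. In the most gene-rich class the larger peaks reach 1.52 and 2.03 in the si-Uc003xsl.1 lists while their members stand at 0.867 and 0.969, and in control replicate 1 members stand at 0.539.

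Close to gene ends lay a smaller share of members than of larger peaks in every list. The share of the autosomes that lies this close to a gene end was not computed, so no depletion is read from these values. Within 1 kb of either end of a protein-coding gene lay 63 members (2.67%) in si-Uc003xsl.1 replicate 1 and 35 (2.40%) in si-Uc003xsl.1 replicate 2, against 49 (0.975%) in control replicate 1. Both si-Uc003xsl.1 lists lay above the control list, with a mean of 2.53% ± 0.19 (SD, n = 2) and a difference of 1.56 percentage points. Larger peaks lay there in 22.3%, 31.5% and 2.21% of cases. Inside protein-coding genes lay 42.2% and 49.1% of the si-Uc003xsl.1 members, against 43.2% of the control members, so the groups overlapped. The exact two-sided permutation test over the 3 splits gave p = 0.333 for the gene ends, the smallest that this design allows, and p = 1 for the gene bodies, where the difference was 2.49 points. Neither can pass a threshold of 0.05.

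Bins of known oncogenes were not dense as a group. The bins of 16 oncogenes had a median relative density of 0.702 in si-Uc003xsl.1 replicate 1, 0.576 in si-Uc003xsl.1 replicate 2 and 0.324 in control replicate 1, against 0.937, 0.768 and 0.756 over all full bins. Of these 16 bins 4, 5 and 3 were above the list's mean, as were 41.7%, 46.0% and 41.9% of all full bins. PIK3CA had the densest of the 16 oncogene bins in control replicate 1, at 3.35. EGFR, the epidermal growth factor receptor gene, had 3, 0 and 0 members in its bin. The bins of 12 tumour suppressors had medians of 0.702, 1.34 and 0.324, and 4, 7 and 3 of them were above the mean. MAP3K1, a kinase gene, had 2, 4 and 20 members in its bin, and NF2, which encodes merlin, had 5, 2 and 0. Among 10 very long genes of common fragile sites, members lay inside 7 in si-Uc003xsl.1 replicate 1 (10 members), inside 2 in si-Uc003xsl.1 replicate 2 (4 members) and inside 8 in control replicate 1 (38 members). These genes span 16.6 Mb, so they held 0.603, 0.241 and 2.29 members per Mb, beside 0.822, 0.507 and 1.75 per Mb over the autosomes. Their bins had median relative densities of 0.937, 0.960 and 0.648. CNTNAP2, a neurexin-family gene, held 2, 3 and 11, and LRP1B, a lipoprotein receptor gene, held 1, 0 and 8. PTPRD, in the empty part of chromosome 9, held 0, 0 and 0.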

How the data were processed

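The submitters' processing notes name Bowtie2, CASAVA 1.4 and the build GRCh38.p11. Peaks were called per library against 1 input with MACS 1.4.2 (p-value threshold 1e-04), and for control replicate 2 with MACS 2.1.1.20160309 (q-value threshold 0.05), per the file headers. The deposited lists give the count of tags per peak, a score that rescales the logarithm of the caller's p, the fold enrichment as a ratio and a false discovery rate in percent, per the file headers. In the list of control replicate 2 the headers name pileup signal, fold and deposited -log10 p-values; only its positions were used. Widths are the deposited peak lengths.

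The members and the gene lists were chosen with earlier results of these data known. Chromosome length was taken as the last end of a peak or RefSeq gene, since no genome was at hand. Correlations were planned over all bins and are given over full bins. Counts of members per bin (at least 10 over the lists) and per autosome were tested with edgeR 4.0.16 in R 4.3.3, with the number of members as library size. DESeq2 1.42.0 was an alternative. edgeR's steps were checked on simulated data. Bins named were the 5 highest and 5 lowest by mean relative density, and those called. Members named overlapped another list's member or had the 3 highest scores of a list. Some items that this rule names are not reported here. Of the gene lists, bins and members singled out beyond this rule (stretches, chromosomes 7, 9 and 12, single cancer genes) were chosen after their values were seen. Gene names and promoters are from RefSeq, GRCh38.p14. Intervals are exact Poisson or Clopper-Pearson at 95% and cover counting error only.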

Additional observations from a re-analysis of the deposited data

Results flagged for a closer look

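Peaks with 6 tags on chromosome X lie outside the autosomal profiles. They made up 1.87% of the 6-tag peaks on chromosomes 1 to 22 and X in si-Uc003xsl.1 replicate 1 (45 of 2408, exact Clopper-Pearson interval 1.37 to 2.49%) and 1.02% in si-Uc003xsl.1 replicate 2 (15 of 1471, 0.572 to 1.68%), against 0.534% in control replicate 1 (27 of 5055, 0.352 to 0.776%). Both si-Uc003xsl.1 shares lay above the control share. The density per Mb was 0.351, 0.190 and 0.0989 of that on the autosomes, so chromosome X was sparse in all 3 lists. The difference was not tested, and a single control library gives no spread for its group.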

How the results depend on the processing

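No paired analysis was possible because the groups compared share only replicate number 1 among the lists with tag counts. edgeR called 3 of 263 bins of 10 Mb and 1 bin with 6 or 7 tags, against 0 bins of 5 Mb; 2-Mb bins, TMM scaling, DESeq2, merging members within 10 kb and no filter also gave 0. The autosomes called numbered 6 with TMM, 7 with 6 or 7 tags (5 higher, 2 lower), 0 with DESeq2 and 1 with merging, against 1. Chromosome 22 lost its call with DESeq2 alone. Leaving out 1 si-Uc003xsl.1 replicate leaves 1 library a group, so no test of bins or autosomes was run. The gene-end difference ran between 1.43 and 1.69 points without either replicate; the gene-body difference ran between -0.94 without si-Uc003xsl.1 replicate 2 and 5.93 without replicate 1, a reversal. Correlations that moved by over 0.1: between the si-Uc003xsl.1 replicates, 0.0679 in 2-Mb bins, 0.286 in 10-Mb bins and 0.746 for 7 tags or more; between si-Uc003xsl.1 replicate 2 and control replicate 1, 0.298, 0.593 and 0.0883. Variance over mean in control replicate 1 was 3.56 in 2-Mb and 10.7 in 10-Mb bins. Within 1 kb, 9 members of si-Uc003xsl.1 replicate 1 and 8 of replicate 2 met one of control replicate 1; at 50% reciprocal overlap the pair at FOXP1 was lost (0 left). With alternatives added after seeing the data, si-Uc003xsl.1 replicate 1 stood at 1.25 in the high stretches with 6 or 7 tags and at 1.08 over bins with 10 or more genes, and in the low stretches at 0.543 with runs of 6 bins and 0.820 over bins with 10 or more genes. Control replicate 2 stood at 0.224 in the low stretches with runs of 6 bins. The causes were not tested, nor was the part of counts per bin, which grow with bin size. Relative densities per autosome stayed within their intervals under all 3 alternatives, 66 values each. These were the intervals of the main setting. They were not recomputed for 6 or 7 tags or for merging, so whether an interval keeps its side of 1 there was not checked. Scaled to the length of 1-Mb windows with a peak or gene, the intervals of chromosome 9 hold 1 in all 3 lists. That of chromosome 3 then holds 1 in si-Uc003xsl.1 replicate 2. Members per 5-Mb bin were fewest in si-Uc003xsl.1 replicate 2, with a mean of 2.6.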
